A study of Rattus norvegicus with 5 samples.

Results

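Thyroid hormone and glucocorticoids both act on neurons that make thyrotropin releasing hormone (TRH), and they do so through the nuclear receptors described here. The 7 genes are *Thra* and *Thrb*, which encode the thyroid hormone receptors, *Rxra*, *Rxrb* and *Rxrg*, which encode the retinoid X receptors that pair with them on DNA, and *Nr3c1* and *Nr3c2*, which encode the glucocorticoid and the mineralocorticoid receptor. Every probe set of the rat U34A array annotated with 1 of these symbols alone was taken, which gave 14 of the 8740 probe sets analysed. There were 3 probe sets each for *Thra*, *Rxrg* and *Nr3c1*, 2 for *Nr3c2*, and 1 each for *Thrb*, *Rxra* and *Rxrb*.

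The cells were primary cultures of the hypothalamus of Wistar rat embryos at day 17. GFP+ cells had been transfected with a plasmid in which the *Trh* promoter drives the green fluorescent protein and were sorted for that fluorescence 48 h later. GFP+/- cells received the same plasmid and passed through the sorter without selection for fluorescence, and they are called unsorted below. NT cells received no plasmid. The RNA was pooled from 6 experiments for GFP+ cells and from 3 each for GFP+/- and NT cells. There were 2 GFP+ arrays, 2 GFP+/- arrays and 1 NT array. The fluorescence marks only cells that took up the plasmid and used its promoter, so other cells that express *Trh* remain among the unsorted cells. By the methods, both arrays of GFP+ or GFP+/- cells took aliquots of the same pooled RNA, although the labels name them biological replicates, so the spread between them may be technical. In that case the SEs, intervals and p-values below do not cover variation between cultures. Cultures were grown in medium with fetal bovine serum and insulin, and the transfected ones spent a short time in a serum-free mixture of plasmid and polyethylenimine. Whether NT cells had the same change of medium or passed through the sorter is not given in the sources used here. Neither can be told apart from transfection in comparisons with NT cells. Thyroid hormone and glucocorticoids were not described as treatments of any population.

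In the absence of thyroid hormone, the thyroid hormone receptors sit on DNA with a retinoid X receptor and corepressors, and binding of T3 exchanges the corepressors for coactivators. On the *Trh* gene the outcome is inverted, since T3 lowers its transcription, which closes the feedback loop between the thyroid and the hypothalamus. The glucocorticoid receptor waits in the cytoplasm with chaperones such as Hsp90 and moves to the nucleus when it binds corticosterone, the main glucocorticoid of the rat. The mineralocorticoid receptor binds the same hormone with higher affinity and is known best from the hippocampus.

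The promoter used to mark the cells is itself a target of these receptors, and its proximal part is shown for that reason. The 250 bases before the start of *Trh* in RefSeq (GRCr8, chr4:126301763-126302012, minus strand) read, 5′ to 3′, with the matches to receptor core motifs in capitals:
Trh upstream: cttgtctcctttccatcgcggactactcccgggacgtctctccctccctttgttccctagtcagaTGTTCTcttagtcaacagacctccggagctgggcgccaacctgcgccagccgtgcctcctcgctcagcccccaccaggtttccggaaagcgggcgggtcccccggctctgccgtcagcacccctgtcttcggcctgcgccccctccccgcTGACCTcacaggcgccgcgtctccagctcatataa
The motif AGGTCA, the core bound by thyroid hormone receptors and other partners of the retinoid X receptors, was searched on both strands and occurred once as its reverse complement TGACCT, at -35 to -30. The motif AGAACA, the core bound by glucocorticoid and mineralocorticoid receptors, occurred once as TGTTCT, at -185 to -180. Positions count from the RefSeq start, which need not be the start that the study counted from. Of 33469 promoters of the same length, 14.1% held AGGTCA and 17.5% held AGAACA on either strand, so matches of this kind are common and describe the letters only. The upstream sequences of 6 of the 7 receptor genes were found in the same table (all but *Nr3c2*), and none of the 6 held either motif.

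Signals are MAS 5.0 values on a linear scale that the authors had set to a common trimmed mean on all arrays. That mean is 501 in the deposited values, higher than the scaling target named in the methods, which leaves ratios within the table unaffected. All differences below are on the log2 scale and come from limma, fitted over all 8740 probe sets and 5 arrays, with p-values adjusted by Benjamini-Hochberg. For NT cells, with their single array, the spread of the transfected populations was assumed. With 2 arrays against 2, an exact two-sided permutation test cannot go below p = 0.333, so none was used. Detection calls were not used here, and fewer cells that express a gene cannot be told apart from less RNA per cell.

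The marker genes were compared with the labels first. *Trh* itself had signals of 115 and 141 in GFP+ cells, 109 and 106 in GFP+/- cells and 96.6 in NT cells on its brighter probe set, with a difference of 0.24 (SE 0.29, adjusted p = 0.761) between GFP+ and GFP+/- cells. On its other probe set *Trh* had 89.5 and 40.2 in GFP+ cells, 86.8 and 51.0 in GFP+/- cells and 122 in NT cells. So enrichment of *Trh* in the sorted cells did not pass the test on these arrays. Of all 8740 probe sets 0 passed in GFP+ against GFP+/- cells, so this result does not set *Trh* apart. The study itself reported more *Trh* mRNA in GFP+ cells by RT-PCR, which was not re-examined here. The summed signal of 15 fibroblast and matrix markers lay between 21318 and 29858 in GFP+ cells, at 57089 and 58628 in GFP+/- cells and at 26346 in NT cells. That of 9 neuronal markers lay at 23151 and 27578 in GFP+ cells, 17474 and 18876 in GFP+/- cells and 33134 in NT cells. The 3 erythroid markers with a probe set summed to 6629 and 6837 in GFP+ cells, 10207 and 14933 in GFP+/- cells but 588 in NT cells. The ratio of the 3′ to the 5′ control probe sets of *Gapdh*, a sign of RNA quality, was 14.6 and 17.6 in GFP+ cells, 12.7 and 14.2 in GFP+/- cells and 5.45 in NT cells. That of *Actb* was 22.9 and 18.7 in GFP+ cells, 31.4 and 14.4 in GFP+/- cells and 10.9 in NT cells, so it set the NT array apart less clearly.

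**Figure D1:**
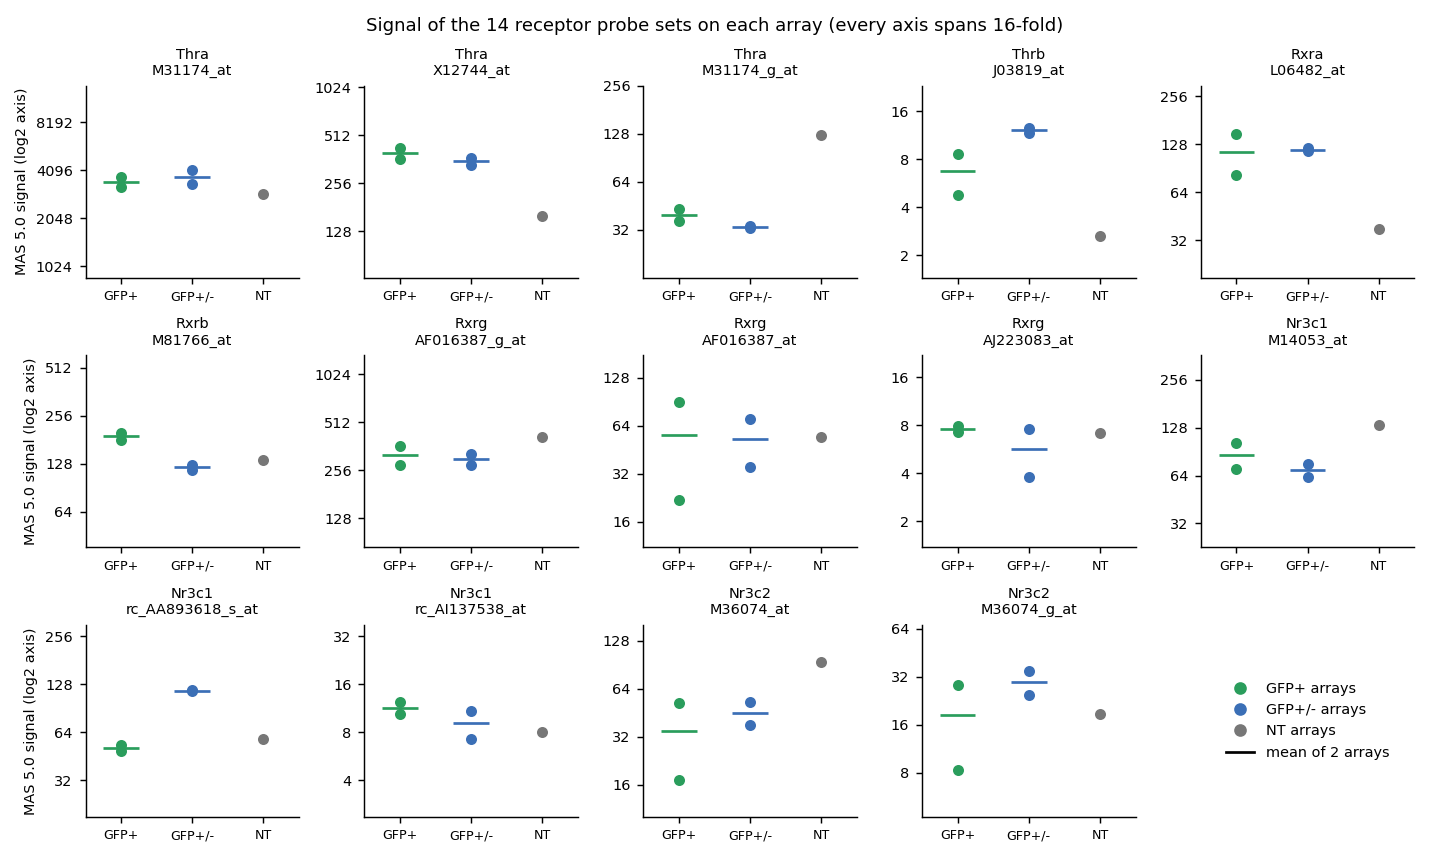
MAS 5.0 signal of the 14 receptor probe sets, each on its own log2 axis of the same 16-fold span, with 1 point for each array of GFP+, GFP+/- and NT cells and a bar at the mean of 2 arrays. The GFP+ points of Nr3c1 rc_AA893618_s_at lie at 48.5 and 52.9, below its GFP+/- points at 117 and 116, while the NT points of Thra X12744_at and Thra M31174_g_at stand apart in opposite directions.

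*Thra*, the predominant thyroid hormone receptor gene in the brain, gave a bright signal on 2 of its 3 probe sets and no difference between sorted and unsorted cells that passed the test. On probe set M31174_at its signal was 3197 and 3694 in GFP+ cells, 4136 and 3333 in GFP+/- cells and 2909 in NT cells. The GFP+ and GFP+/- arrays overlapped, and NT cells lay slightly below them. The highest of the 5 arrays was only 1.42 times the lowest. The difference of GFP+ from GFP+/- cells was -0.11 (SE 0.19, adjusted p = 0.838), with a 95% interval of -0.59 to 0.36. Against NT cells the differences were 0.24 (SE 0.24, adjusted p = 0.627) for GFP+ and 0.35 (SE 0.24, adjusted p = 0.441) for GFP+/- cells.

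The other *Thra* probe sets did not tell the same story about NT cells. X12744_at had 426 and 364 in GFP+ cells, 370 and 333 in GFP+/- cells and 160 in NT cells. The transfected populations overlapped there, and NT cells lay below all 4 of their arrays. GFP+ cells were higher than NT cells by 1.30 (SE 0.25, adjusted p = 0.0384), the only receptor difference that passed in any of the comparisons. GFP+/- cells differed from NT cells by 1.13 (SE 0.25), just short of the threshold (adjusted p = 0.0503). The call in GFP+ against NT cells did not survive the loss of a single transfected array, whichever it was (difference 1.18 to 1.41, adjusted p 0.0856 to 0.128).

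The dim probe set M31174_g_at, made from the same *Thra* sequence as M31174_at, had 43.1 and 36.4 in GFP+ cells, 33.7 and 32.8 in GFP+/- cells and 125 in NT cells. NT cells lay above all other arrays here, the reverse of X12744_at. The differences were -1.66 (SE 0.49, adjusted p = 0.104) for GFP+ and -1.91 (SE 0.49, adjusted p = 0.0726) for GFP+/- against NT cells. The 3 *Thra* probe sets thus placed NT cells slightly below, clearly below and above the transfected cells, and they give no common direction for the gene. The *Gapdh* 3′ to 5′ ratio, the erythroid markers and, less clearly, the *Actb* ratio, all given above, also set the NT array apart. Their part in these differences was not tested.

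In RefSeq the *Thra* gene overlaps *Med24*, a Mediator subunit gene, and *Nr1d1*, which encodes the haem-binding repressor Rev-erb alpha and is transcribed from the opposite strand. *Nr1d1* had 243 and 284 in GFP+ cells, 146 and 171 in GFP+/- cells and 127 in NT cells. All GFP+ arrays lay above all others, with differences of 0.74 (SE 0.25, adjusted p = 0.288) from GFP+/- and 1.05 (SE 0.30, adjusted p = 0.0954) from NT cells, neither past the threshold. Which part of the locus each probe set reads was not determined here.

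*Thrb*, which encodes the receptor known for the feedback of T3 on *Trh* and on thyrotropin, was represented by 1 very dim probe set. Its signal was 4.80 and 8.66 in GFP+ cells, 11.7 and 12.6 in GFP+/- cells and 2.66 in NT cells. The populations did not overlap, and GFP+ cells lay between the others. The differences were -0.92 (SE 0.51, adjusted p = 0.503) for GFP+ against GFP+/- cells, 1.28 (SE 0.63, adjusted p = 0.297) for GFP+ against NT cells and 2.19 (SE 0.63, adjusted p = 0.0945) for GFP+/- against NT cells. The 2 GFP+ arrays alone differed by 1.81-fold. At 8.09, its mean signal over the 5 arrays was higher than that of only 6.89% of probe sets, so the order of the populations rests on values near the bottom of the scale.

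**Figure D2:**
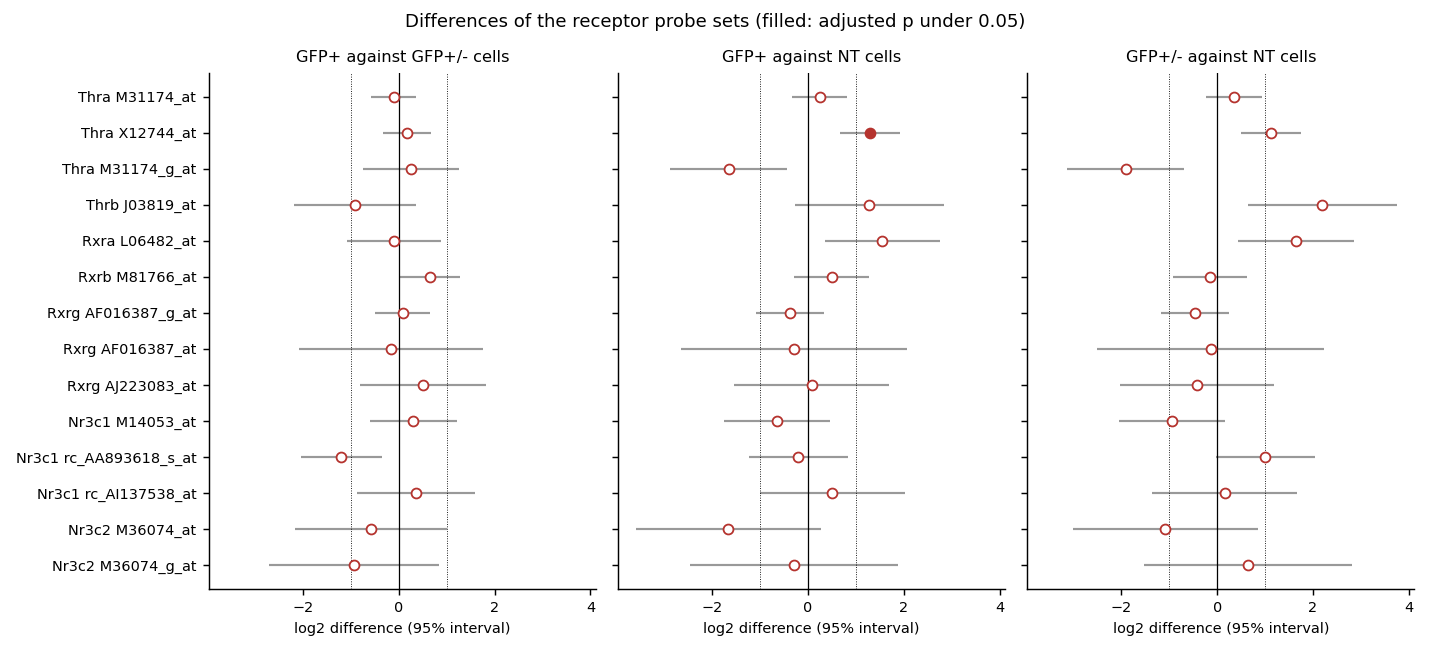
Log2 differences of the 14 receptor probe sets with 95% intervals from limma, with panels for GFP+ against GFP+/- cells, for GFP+ against NT cells and for GFP+/- against NT cells, and with dotted lines at 2-fold. The only filled point, past an adjusted p of 0.05, is Thra X12744_at in GFP+ against NT cells (1.30).

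Among the retinoid X receptors, *Rxrb*, the most widely expressed of them, came closest to a difference between sorted and unsorted cells. Its signal was 200 and 180 in GFP+ cells, 125 and 117 in GFP+/- cells and 135 in NT cells. Both GFP+ arrays lay above all other arrays. The difference was 0.65 (SE 0.26) from GFP+/- cells, with an unadjusted p of 0.0462 in limma and an adjusted p of 0.350. From NT cells it was 0.49 (SE 0.31, adjusted p = 0.423). The 9 neuronal markers had a median difference of 0.65 and the 7 microglial markers one of 1.23 in GFP+ against GFP+/- cells, and their part in the *Rxrb* value was not tested. The summed microglial signal lay between 608 and 750 in GFP+ cells, between 299 and 396 in GFP+/- cells and at 602 in NT cells. In RefSeq *Rxrb* overlaps the zinc transporter gene *Slc39a7*, and whether the probe set reads the shared part was not determined here.

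*Rxra*, which encodes the main retinoid X receptor of liver and skin, had close averages in both transfected populations. Its signal was 82.0 and 148 in GFP+ cells, 120 and 115 in GFP+/- cells and 37.5 in NT cells. The GFP+ arrays enclosed the GFP+/- arrays, with a difference of -0.099 (SE 0.40, adjusted p = 0.943). NT cells lay below all 4, and the differences from them were 1.55 (SE 0.49, adjusted p = 0.118) for GFP+ and 1.65 (SE 0.49, adjusted p = 0.101) for GFP+/- cells, short of the threshold in both.

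*Rxrg*, the member of restricted expression in brain and muscle, showed no difference on any of its probe sets that passed the test. On the brightest, AF016387_g_at, the signal was 364 and 276 in GFP+ cells, 276 and 324 in GFP+/- cells and 412 in NT cells. The transfected populations overlapped, with a difference of 0.084 (SE 0.23, adjusted p = 0.911; 95% interval -0.49 to 0.66). Against NT cells the differences were -0.38 (SE 0.28, adjusted p = 0.503) for GFP+ and -0.46 (SE 0.28, adjusted p = 0.401) for GFP+/- cells. AF016387_at, from the same sequence, had 21.8 and 89.6 in GFP+ cells, 35.0 and 70.1 in GFP+/- cells and 54.5 in NT cells, a gap of 4.10-fold between the 2 GFP+ arrays that exceeded any gap between populations. Its difference of GFP+ from GFP+/- cells was -0.16 (SE 0.78, adjusted p = 0.951). AJ223083_at stayed between 3.82 and 7.95 on all arrays, with a difference of 0.50 (SE 0.53, adjusted p = 0.732).

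*Nr3c1*, the glucocorticoid receptor gene, had 3 probe sets, and 1 of them showed the largest difference among the receptors between sorted and unsorted cells. On rc_AA893618_s_at the signal was 48.5 and 52.9 in GFP+ cells, 117 and 116 in GFP+/- cells and 58.3 in NT cells. The 2 arrays of each population were close, and the GFP+/- cells stood above both others. The difference of GFP+ from GFP+/- cells was -1.21 (SE 0.34, unadjusted p = 0.0133 in limma), and it did not pass after adjustment (adjusted p = 0.242). GFP+/- cells differed from NT cells by 1.00 (SE 0.42, adjusted p = 0.213), and GFP+ from NT cells by -0.20 (SE 0.42, adjusted p = 0.836). The summed signal of the 15 fibroblast and matrix markers was likewise higher in GFP+/- than in GFP+ and NT cells (sums above). By the ratio of averaged signals, 10 of the 15 were more than 2-fold lower and 0 higher in GFP+ against GFP+/- cells (median difference -1.32). In GFP+/- against NT cells 6 were more than 2-fold higher and 2 lower (median difference 0.86), so not every marker followed the sum. Their part in the *Nr3c1* value was not tested. The summed signal of 9 endothelial and mural markers had the same high point, with 2279 to 4045 in GFP+ cells, 9264 to 11506 in GFP+/- cells and 1881 in NT cells. Their median difference in GFP+ against GFP+/- cells was 0.11, and their part was not tested either.

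The other *Nr3c1* probe sets did not share that pattern. M14053_at had 102 and 70.0 in GFP+ cells, 62.6 and 75.5 in GFP+/- cells and 132 in NT cells. The transfected populations overlapped (difference 0.30, SE 0.37, adjusted p = 0.763), and NT cells were the brightest by value. The differences from NT cells were -0.64 (SE 0.45, adjusted p = 0.469) for GFP+ and -0.94 (SE 0.45, adjusted p = 0.273) for GFP+/- cells. rc_AI137538_at was dim throughout, between 7.19 and 12.3, with a difference of 0.35 (SE 0.50, adjusted p = 0.804) between GFP+ and GFP+/- cells. From NT cells its differences were 0.51 (SE 0.61, adjusted p = 0.701) for GFP+ and 0.15 (SE 0.61, adjusted p = 0.919) for GFP+/- cells.

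*Nr3c2*, the mineralocorticoid receptor gene, was dim on both probe sets and varied widely between the 2 arrays of GFP+ cells. M36074_at had 52.4 and 17.2 in GFP+ cells, 38.2 and 52.7 in GFP+/- cells and 94.99 in NT cells. M36074_g_at had 8.29 and 28.4 in GFP+ cells, 24.5 and 34.8 in GFP+/- cells and 18.7 in NT cells. The 2 GFP+ arrays differed by 3.05-fold and 3.43-fold and in opposite directions, so GFP+ and GFP+/- cells overlapped in both, and NT cells lay above all other arrays in the first only. The differences of GFP+ from GFP+/- cells were -0.58 (SE 0.64, adjusted p = 0.736) and -0.93 (SE 0.72, adjusted p = 0.622). On M36074_at the differences from NT cells were -1.66 (SE 0.78, adjusted p = 0.275) for GFP+ and -1.08 (SE 0.78, adjusted p = 0.482) for GFP+/- cells, and on M36074_g_at they were -0.29 (SE 0.88, adjusted p = 0.891) and 0.64 (SE 0.88, adjusted p = 0.735).

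Counted together, few receptor probe sets separated sorted from unsorted cells. In GFP+ against GFP+/- cells 0 of 14 receptor probe sets had an adjusted p under 0.05, as did 0% of all 8740. Before adjustment, p was under 0.05 in limma for 1 receptor probe set that was higher (*Rxrb*) and 1 that was lower (*Nr3c1* rc_AA893618_s_at), against 800 and 415 of all. Both GFP+ arrays lay above both GFP+/- arrays for 2 of 14 (*Rxrb* and *Thra* M31174_g_at), against 30.4% of all, and below them for 2 (*Thrb* and *Nr3c1* rc_AA893618_s_at), against 15.4% of all. By the ratio of averaged signals, the measure of the study, 0 were more than 2-fold higher, against 8.89% of all, and 1 was more than 2-fold lower (*Nr3c1* rc_AA893618_s_at, ratio 0.434), against 4.18% of all. The median difference of the 14 was -0.0075, against 0.13 for all probe sets, and 7 of 14 lay above 0, against 60.5% of all.

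The excess of higher over lower probe sets in this comparison depended on the scaling. As deposited, 777 were more than 2-fold higher and 365 lower. With quantile normalization 565 were higher and 518 lower, and with equal medians 596 and 503. For arrays that did not overlap, 2654 higher and 1348 lower became 1914 and 1876 or 1783 and 2065 under these scalings. The median of all probe sets was 0.13 as deposited and -0.029 with equal medians, where *Rxrb* differed by 0.49 and *Nr3c1* rc_AA893618_s_at by -1.36. Under either scaling *Rxrb* remained above and *Thrb* and *Nr3c1* rc_AA893618_s_at below on every array, *Thra* M31174_g_at overlapped, and *Thrb* passed 2-fold (ratios 0.482 and 0.495). Under each scaling 1 more probe set came to lie below on every array, *Nr3c2* M36074_g_at with quantile normalization (ratio 0.523) and *Thra* M31174_at with equal medians (ratio 0.826).

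Against NT cells the receptor counts were small and lay on either side of the background. In GFP+ against NT cells 1 of 14 passed (7.14%), against 8.44% of all probe sets. By the ratio of averaged signals 3 were more than 2-fold higher (*Thra* X12744_at, *Thrb* and *Rxra*), against 14.5% of all, and 2 lower (*Thra* M31174_g_at and *Nr3c2* M36074_at), against 12.3% of all. In GFP+/- against NT cells 0 of 14 passed, against 9.23% of all, while 3 higher and 1 lower had p under 0.05 in limma before adjustment, against 999 and 1179 of all. There, 4 were more than 2-fold higher, the same 3 and *Nr3c1* rc_AA893618_s_at (ratio 2.00), against 12.1% of all, and the same 2 were lower, against 15.2% of all. The comparisons share the NT array, so a value that is far off on that array enters both.

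**Figure D3:**
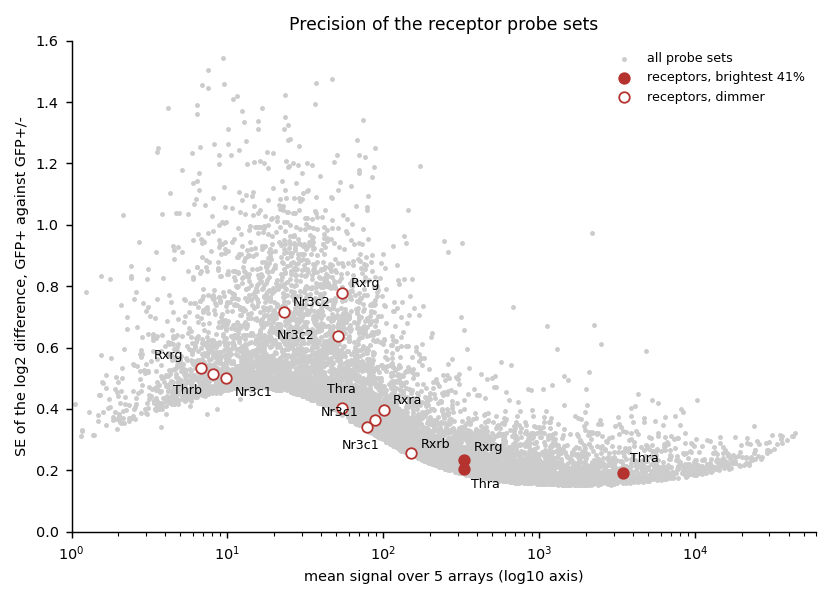
SE of the log2 difference of GFP+ from GFP+/- cells in limma against the mean signal over 5 arrays on a log10 axis, with all probe sets in grey and the 14 receptor probe sets in red. The 3 filled receptor points (2 of Thra and 1 of Rxrg) have SEs of 0.19 to 0.23, and the 11 open ones, outside the brightest 41% of probe sets, have 0.26 to 0.78.

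Few of the receptor probe sets were bright. Only 3 of the 14 probe sets, *Thra* M31174_at and X12744_at and *Rxrg* AF016387_g_at, were among the brightest 41% of probe sets, which begin at a mean signal of 175. Their SEs between GFP+ and GFP+/- cells were 0.19 to 0.23, as the plot of SE against signal shows, and those of the 11 dimmer probe sets were 0.26 to 0.78. The fit draws each variance towards a trend with signal, so part of this contrast is built in. Among the brightest 41%, the 2 GFP+ arrays differed by over 2-fold in 3.27% of probe sets. A gap of more than 2-fold between the 2 GFP+ arrays was seen in 3 receptor probe sets (*Rxrg* AF016387_at and both of *Nr3c2*), against 15.5% of all, and between the 2 GFP+/- arrays in 1 (*Rxrg* AF016387_at), against 13.2% of all. For all 11 dimmer probe sets the 95% interval in GFP+ against GFP+/- cells reached beyond 2-fold in at least 1 direction, so these arrays could not tell such a difference from none or, for *Rxrb* and *Nr3c1* rc_AA893618_s_at, from a smaller one. The intervals of the 3 bright probe sets stayed within 2-fold. If the arrays share pooled RNA, these intervals do not cover variation between cultures.

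The transcripts whose profile over the 5 arrays was nearest to the bright receptors were named by the root mean square difference of centred log2 signals. For *Thra* M31174_at they were *Ndufb8*, a subunit of mitochondrial complex I (0.029), *Tmed10*, a cargo receptor of the early secretory pathway (0.049), and *Lrrc59*, an endoplasmic reticulum protein (0.049). For *Rxrg* AF016387_g_at they were *Hpca*, the neuronal calcium sensor hippocalcin (0.043), *Msmo1*, an enzyme of cholesterol synthesis (0.048), and *Ywhaq*, a 14-3-3 protein (0.056). These profiles are nearly flat, and 134 of 2949 candidates lay within 0.15 of *Thra* and 79 of 2950 within 0.15 of *Rxrg*, so the names describe 5 arrays and no more.

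The receptors that share the retinoid X receptors as partners, together with related orphan receptors, gave 4 higher and 1 lower call in GFP+ against NT cells and 1 higher in GFP+/- against NT cells, out of 28 genes. Of all probe sets, 4.38% were called higher and 4.06% lower in GFP+ against NT cells, and 4.20% higher and 5.03% lower in GFP+/- against NT cells. The call in GFP+/- cells is thus at the background share. For these genes and those that follow, the brightest probe set of each was used, and the shares over all probe sets are not matched for brightness. Calls were more frequent in a fit of the brightest 41% alone. There, 1133 of 3583 were called in GFP+ and 1162 of 3583 in GFP+/- against NT cells, in either direction. Of the 28, 0 passed in GFP+ against GFP+/- cells, where their median difference was 0.30 against 0.13 for all probe sets. In GFP+ against NT cells it was 0.46 against 0.056 for all, and in GFP+/- against NT cells 0.15 against -0.094. The immediate early orphan receptor *Nr4a1* had 751 and 518 in GFP+ cells, 339 and 307 in GFP+/- cells and 144 in NT cells, a difference of 2.12 (SE 0.30, adjusted p = 0.0192) from NT cells. The related *Nr4a3* had 526 and 544 in GFP+ cells, 129 and 245 in GFP+/- cells and 135 in NT cells, a difference of 1.98 (SE 0.42, adjusted p = 0.0461). In both genes the GFP+ arrays were above all others. Calls against NT cells rest on few arrays: over the whole array 1 of 8740 probe sets was called in GFP+ against NT cells without any 1 transfected array, and 1 in GFP+/- against NT cells without either GFP+/- array. The *Gapdh* ratio and the erythroid markers, given above, set the NT array apart from both transfected populations, and their part in these calls was not tested. *Nr4a3* did not differ in that way, with a difference of 0.39 (SE 0.42, adjusted p = 0.653) between GFP+/- and NT cells.

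The retinoic acid receptor gene *Rara*, whose product works as a partner of retinoid X receptors, had 1149 and 940 in GFP+ cells, 1058 and 803 in GFP+/- cells and 417 in NT cells. The transfected populations overlapped, and GFP+ cells were higher than NT cells by 1.32 (SE 0.26, adjusted p = 0.0408). *Nr2f1*, an orphan receptor that can compete with thyroid hormone receptors for their sites, was lower in GFP+ than in NT cells (-1.77, SE 0.37, adjusted p = 0.0457), with 1233 and 2054 in GFP+ cells, 2218 and 3124 in GFP+/- cells and 5447 in NT cells. Its relative *Nr2f2* was dim and higher in both transfected populations than in NT cells, with 65.5 and 47.5 in GFP+ cells, 152 and 147 in GFP+/- cells and 8.21 in NT cells (differences 2.76, adjusted p = 0.0304, and 4.19, adjusted p = 0.0140). Only 8.33% of signals on the NT array were lower, so the size of these differences is uncertain. With 16 added to each signal they were 1.57 (adjusted p = 0.0633, not past the threshold) and 2.77 (adjusted p = 0.0174).

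**Figure D4:**
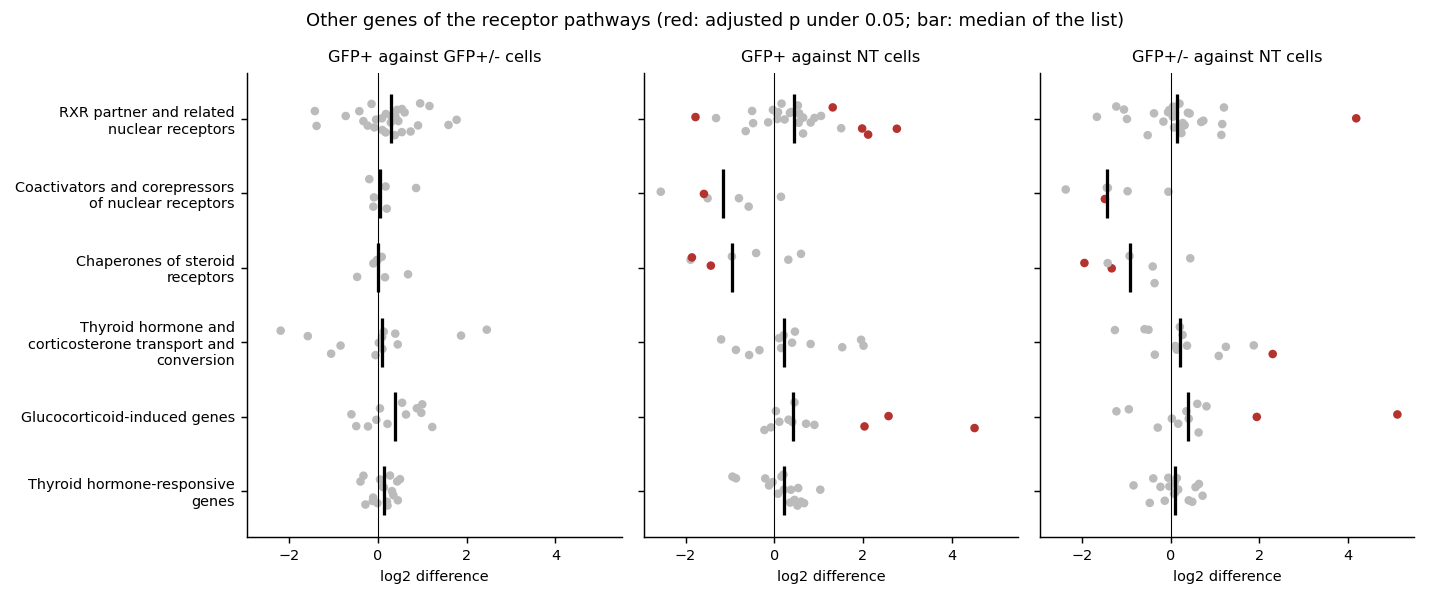
Log2 differences of the genes of 6 lists around the receptors, each gene from its brightest probe set, with panels for GFP+ against GFP+/- cells, for GFP+ against NT cells and for GFP+/- against NT cells, and with a bar at the median of each list. Red points passed an adjusted p of 0.05 in limma, and none did in GFP+ against GFP+/- cells.

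Among coregulators and chaperones of the receptors the few calls against NT cells were in the lower direction, in lists of 6 and 7 genes, against 4.06% (GFP+) and 5.03% (GFP+/-) of all probe sets called lower. The medians below compare with 0.056 and -0.094 for all probe sets. Only 3 of the 6 coregulators were among the brightest 41%, so dim genes enter their medians. *Tbl1xr1*, for example, had 2.82 and 2.36 in GFP+/- cells and 6.97 in NT cells. Of 6 coactivators and corepressors with a probe set, 1 was lower and 0 higher in GFP+ against NT cells (median -1.15), and 1 was lower and 0 higher in GFP+/- against NT cells (median -1.42). It was the histone deacetylase *Hdac2* in both, with 962 and 1100 in GFP+ cells, 959 and 1274 in GFP+/- cells and 3084 in NT cells (-1.58, SE 0.25, adjusted p = 0.0231, and -1.48, SE 0.25, adjusted p = 0.0262). The Mediator subunit *Med1*, which binds the liganded thyroid hormone receptor, had 163 and 155 in GFP+ cells, 137 and 209 in GFP+/- cells and 450 in NT cells and did not pass (adjusted p = 0.0593 and 0.0651).

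Of 7 chaperones, 2 were lower and 0 higher against NT cells in both transfected populations, with medians of -0.95 in GFP+ and -0.92 in GFP+/- cells. *St13*, an Hsp70 cofactor that takes part in the assembly of the glucocorticoid receptor complex, had 194 and 246 in GFP+ cells, 174 and 244 in GFP+/- cells and 792 in NT cells (-1.86, adjusted p = 0.0299, and -1.94, adjusted p = 0.0262). The Hsp40 gene *Dnaja1* had 3550 and 4278 in GFP+ cells, 4260 and 4114 in GFP+/- cells and 10494 in NT cells (-1.43, adjusted p = 0.0231, and -1.33, adjusted p = 0.0265). *Hsp90ab1*, which encodes the Hsp90 that holds the steroid receptors, had 17789 and 20898 in GFP+ cells, 15807 and 18879 in GFP+/- cells and 12695 in NT cells and differed by 0.16 (SE 0.23, adjusted p = 0.810) between GFP+ and GFP+/- cells. In GFP+ against GFP+/- cells 0 of these coregulators and chaperones passed, with medians of 0.041 and -0.0065.

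Genes that carry or convert the hormones gave 1 call. Of 13 with a probe set, 0 passed in GFP+ against GFP+/- or NT cells, and 1 passed in GFP+/- against NT cells. Of all probe sets, 0% passed in GFP+ against GFP+/- cells, 8.44% in GFP+ against NT cells and 9.23% in GFP+/- against NT cells (4.20% higher). The list medians in these 3 comparisons were 0.094, 0.21 and 0.21, against 0.13, 0.056 and -0.094 for all probe sets. The gene that passed is thus no more than the background share would give. It was *Ttr*, which encodes the thyroxine carrier transthyretin made by the choroid plexus, with 2961 and 5060 in GFP+ cells, 18147 and 17266 in GFP+/- cells and 3587 in NT cells (higher by 2.30, SE 0.35, adjusted p = 0.0226, in GFP+/- against NT cells). Its GFP+/- arrays stood well above all others, with a difference of -2.19 (SE 0.29, adjusted p = 0.121) for GFP+ against GFP+/- cells. *Hsd11b1*, the enzyme that regenerates active glucocorticoid, had 147 and 227 in GFP+ cells, 329 and 326 in GFP+/- cells and 419 in NT cells, with differences of -0.84 (SE 0.27, adjusted p = 0.283) from GFP+/- and -1.20 (SE 0.33, adjusted p = 0.0891) from NT cells. *Slc3a2*, the heavy chain of an amino acid carrier that also moves thyroid hormone, had 6803 and 4151 in GFP+ cells, 4914 and 3097 in GFP+/- cells and 1837 in NT cells and did not pass (1.53, SE 0.40, adjusted p = 0.0789, for GFP+ against NT cells).

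The last lists hold genes known to respond to the hormones. Of 12 glucocorticoid-induced genes with a probe set, 0 passed in GFP+ against GFP+/- cells (median 0.38), 3 were higher in GFP+ than in NT cells (median 0.43) and 2 in GFP+/- than in NT cells (median 0.38), and 0 were lower. Of all probe sets, 4.38% and 4.20% were called higher in these comparisons with NT cells, with medians of 0.056 and -0.094. *Nfkbia*, which encodes the inhibitor of NF-kappaB, had 1171 and 1021 in GFP+ cells, 662 and 753 in GFP+/- cells and 183 in NT cells (2.58, SE 0.22, adjusted p = 0.00808, and 1.94, SE 0.22, adjusted p = 0.0136, against NT cells). *Cdkn1a*, an inhibitor of cyclin-dependent kinases, had 545 and 581 in GFP+ cells, 297 and 196 in GFP+/- cells and 137 in NT cells (2.03, SE 0.32, adjusted p = 0.0235, for GFP+ against NT cells). The transcription factor gene *Cebpb* was dim and had 90.4 and 79.8 in GFP+ cells, 99.2 and 167 in GFP+/- cells and 3.71 in NT cells (adjusted p = 0.0149 and 0.0110). Its NT signal lay near the bottom of the scale, above only 2.59% of signals on that array, so the size of the difference was not measured. With 16 added to each signal it was 2.36 (adjusted p = 0.0323) in GFP+ and 2.88 (adjusted p = 0.0208) in GFP+/- cells. These genes are also induced by stress, p53 or cytokines, and the list does not separate those routes. Of 17 genes responsive to thyroid hormone, 0 passed in any comparison, with medians of 0.13, 0.22 and 0.092 in GFP+ cells against GFP+/- cells, in GFP+ cells against NT cells and in GFP+/- cells against NT cells. By the ratio of averaged signals, 1 of the 17 was more than 2-fold higher and 0 lower in GFP+ against NT cells, against 14.5% and 12.3% of all. It was *Bdnf*, with 1240 and 743 in GFP+ cells, 629 and 945 in GFP+/- cells and 467 in NT cells (1.04, SE 0.39, adjusted p = 0.178, for GFP+ against NT cells).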

How the data were processed

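The authors hybridized RNA of GFP+, GFP+/- and NT cells to rat U34A arrays and summarised each probe set with MAS 5.0. The deposited values are linear signal intensities, scaled by the authors by 1 factor per array; the trimmed mean was 501 on each array (2% off either end), not the target named in the methods. All 5 columns were mapped to a population. Of 8799 probe sets, 59 controls were left out. The platform annotation gave 1 gene for 7006 of the other 8740 probe sets, several for 308 and none for 1426; 6985 symbols were found in RefSeq (GRCr8, names only). Sequences are RefSeq's. Probe sequences were not used here.

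Signals under 1 were set to 1 and log2 was taken, with no filter. limma 3.58.1 in R 4.3.3 fitted 1 mean per population over 5 arrays, with an intensity trend and no covariate, and Benjamini-Hochberg adjustment was applied over the 8740 probe sets with a threshold of 0.05. The fit was checked on simulated data. Python 3.11.15 (pandas 2.3.3, numpy 2.4.6) gave ratios, counts and motif matches, and matplotlib 3.10.9 the plots. The number of arrays limits the precision.

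The receptors and the 6 pathway lists were chosen with earlier results of these data known. Every receptor probe set is named. From a list, genes past the threshold and up to 3 with the largest differences among the brightest 41% could be named, and from the bright receptors the 3 nearest profiles. *Nr1d1*, *Trh* and *Hsp90ab1* follow from the locus, the sort and the receptor complex. Alternatives were quantile and median scaling, 16 added to each signal, the brightest 41% only, no trend, only GFP+ and GFP+/- arrays, a replicate block and each GFP+ or GFP+/- array left out in turn.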

Additional observations from a re-analysis of the deposited data

How the results depend on the processing

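For single receptor probe sets, 351 of 373 alternative values kept direction and side of the threshold, 14 changed sign (none past the threshold), 3 passed newly and 5 no longer passed. Many of these values could not change direction. The difference stays identical without the trend, in the brightest set, with only GFP+ and GFP+/- arrays and with the replicate block. It also stays identical when the array left out is outside the comparison. Only 1 receptor difference passed before any change of setting, so the count of kept values says little about robustness. Fewer arrays leave 1 residual degree of freedom instead of 2, and dim signals limit the dimmer 11 probe sets. The cause of the other changes was not tested. In GFP+ against GFP+/- cells, 144 of 3583 probe sets were called among the brightest 41%, against 0 of 8740 over all, and 0 of the 3 receptor probe sets there. The replicate numbers of the labels were not shown to pair the arrays (the deviations of arrays with the same number correlated at 0.063 over all and 0.20 over the brightest probe sets); with the replicate block 2 probe sets were called over all and 0 of the receptors. With equal medians the receptor median was -0.16 and *Rxrg* AF016387_g_at -0.073 (quantile: -0.047). With 1 array left out, the receptor median ran from 0.0059 to 0.25, *Rxra* from -0.52 to 0.32, *Rxrg* AF016387_g_at from -0.12 to 0.28 and AF016387_at from -1.18 to 0.86, *Nr3c2* M36074_at from -1.39 to 0.22 and *Thra* M31174_at from -0.27 to 0.044.

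In GFP+ against NT cells, 738 probe sets were called, but 1133 among the brightest 41%, 2 without the trend and 1 with any 1 array left out. The *Thra* X12744_at call held with both scalings, the offset and the brightest set (adjusted p 0.00664 to 0.0418) and was lost without the trend (adjusted p = 0.124) or with any 1 array left out (0 receptor calls). The receptor median was 0.24 among the brightest and ran from -0.063 to 0.37 with 1 array left out, *Rxrg* AF016387_at from -1.32 to 0.72 and *Nr3c2* M36074_g_at from -1.18 to 0.60. In GFP+/- against NT cells, 807 probe sets were called, 2 without the trend and 1 to 333 with 1 array left out (1 without either GFP+/- array). *Thra* X12744_at passed with quantile normalization (adjusted p = 0.0448), equal medians (0.0393) and in the brightest set (0.0121), giving 1 receptor call in each. The receptor median was 0.16 with quantile normalization, 0.35 among the brightest and 0.0080 to 0.23 with 1 array left out. There *Rxrg* AF016387_at ran from -0.64 to 0.36 and AJ223083_at from -0.92 to 0.074, and *Nr3c1* rc_AI137538_at from -0.15 to 0.46.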
